A study of Homo sapiens with 16 samples.

Results

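Macro-MKI67 is a cluster of dividing macrophages, named so in the deposited annotation, from tumors of a pair of mouse mammary models, LPA1-T22 and LPA1-T127. Its members here were the cells with that name, 948 of 48824 cells in all. Of these, 420 came from the long-term experiment, 330 from the short-term T22 experiment and 198 from the short-term T127 experiment. A minority of them carried Epcam and little F4/80 and is described last; whether those cells are macrophages was not tested. All are described against the other macrophage clusters of the same annotation, Macro-M1, Macro-M2 and Macro-others.

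Pieces of LPA1-T127 (T127) tumor or of LPA1-T22 (T22) tumor, both derived from mice that express the lysophosphatidic acid receptor LPA1 as a transgene in the mammary epithelium, were transplanted into the mammary fat pad of female FVB mice bought at an age of 6 weeks. The labels place the assignment to treatment 14 days (T22) or 10 days (T127) after transplantation, without saying whether this held in every experiment, and in mice with both models T22 was transplanted first. Treatment with olaparib, a PARP inhibitor, at 50 mg/kg daily by mouth, or with vehicle, lasted 4 or 8 days in the short-term experiments and 20 days in the long-term experiment. Dissociated tumors were marked with oligonucleotide tags and combined into 4 pools of T22 tumors, 4 pools of T127 tumors and 8 long-term pools, the last holding tumors of both models from mice that carried either 1 model or both on opposite sides. The pools of each experiment carry the same title, and whether they held the same or different tumors is not known here. Ranges and counts over pools may therefore not cover differences between tumors. The files used here give each cell's pool and cluster but not its tumor, so that olaparib and vehicle, the days of treatment and, in the long-term pools, the 2 models cannot be told apart. The labels list the organism as human, while the protocols and the reference genome are those of the mouse.

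Tissue macrophages descend from circulating monocytes or from cells seeded before birth, and both kinds can divide in place under Csf1, the growth factor that signals through the receptor Csf1r. A dividing cell first makes the enzymes and histones for DNA replication in S phase and then the cyclins, kinases and spindle proteins of G2 and mitosis (G2/M). Mki67, the Ki-67 protein that coats mitotic chromosomes, Top2a, the topoisomerase that untangles them, and Prc1 and Nusap1, which bundle spindle microtubules, are made mainly in these later phases and serve as markers of cycling cells of any kind.

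Several long-term pools shared cell barcodes. In 3 pairs of pools, all among pools 1 to 3, 987 to 3939 barcodes were common to both, against at most 8 in any other pair, and each barcode was kept once, as its deepest copy, which left 25723 of 30845 long-term cells. Among the 420 long-term Macro-MKI67 barcodes, 124 had a shallower copy elsewhere. The 157 shallower copies had a median of 2446 UMIs (unique molecular identifiers, counts of RNA molecules), against 15633.5 in the copies kept, and only 18 of them carried the name Macro-MKI67. The authors had named 105 of them CD16-CDKN1C. Macro-MKI67 cells were the deepest of the macrophages, with a median of 15227 UMIs in the long-term, 16417 in the short-term T22 and 22626.5 in the short-term T127 experiment. That was 1.31, 1.36 and 1.58 times the median of Macro-M1, Macro-M2 and Macro-others in the long-term pools, 1.19, 1.24 and 1.502 times in the T22 pools, and 2.00 and 2.04 times the median of Macro-M2 and Macro-others in the T127 pools. Levels are therefore given as counts per 1000000 UMIs of the cluster (CPM), which measure a gene's share of the RNA and not its amount per cell, and in which fewer expressing cells and less RNA in each cannot be told apart. The part that cell size, RNA content or joined cells have in this depth was not tested.

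The 4 markers were higher in Macro-MKI67 than in every other macrophage cluster in every pool. Mki67 had 482 CPM in the long-term cells, with a lowest, median and highest pool of 369, 454 and 676 CPM, against 49.9 CPM in Macro-M1, 42.6 in Macro-M2 and 86.5 in Macro-others. Mki67 stood in the T22 pools at 886, 949, 1112 and 1241 CPM and in the T127 pools at 664, 789, 716 and 616 CPM. The T22 pools were all above the T127 pools. Such a lack of overlap between T22 and T127 pools, in either direction, held for 38.6% of all 7683 genes tested in Macro-MKI67. The ratio of long-term Mki67 levels was 9.66 (8.85 to 10.6) to Macro-M1, 11.3 (10.7 to 12.0) to Macro-M2 and 5.57 (5.31 to 5.85) to Macro-others; here and below, the range in parentheses is an exact 95% interval that covers counting error only. Top2a was 12.0 (11.2 to 12.998), 16.5 (15.7 to 17.4) and 5.95 (5.73 to 6.18) times as high as in these clusters, and Prc1 11.6, 20.1 and 5.17 times. Nusap1 had the widest margin, 17.6, 22.3 and 6.25 times. In the T127 pools the same 4 genes stood much closer to Macro-others than to Macro-M2. Mki67 was 18.1 times (16.5 to 19.8) as high as in Macro-M2 but 2.95 times (2.70 to 3.22) as high as in Macro-others, and Nusap1 64.3 times (45.6 to 93.6) and 4.28 times (3.44 to 5.37). Since the authors made the clusters from the expression of these cells, differences between clusters are given as descriptions, without a test. According to their methods, effects of the cell cycle were removed in scaling before clustering.

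**Figure D1:**
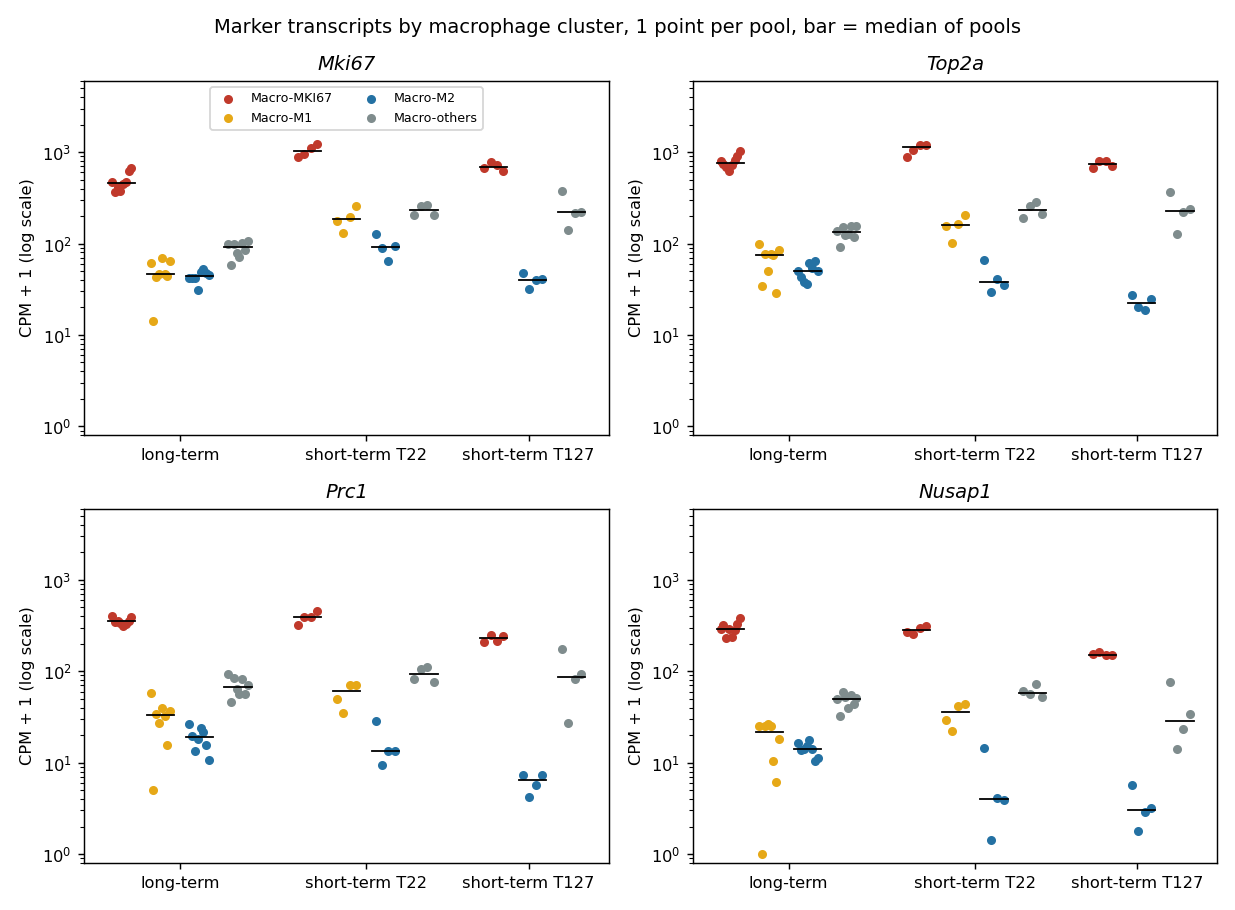
CPM plus 1 (log scale) of the markers Mki67, Top2a, Prc1 and Nusap1 in each pool, by experiment, for Macro-MKI67 and the other macrophage clusters, with 1 point per pool and a line at the median of the pools. For every marker the Macro-MKI67 points of each experiment lie above those of the other clusters, and the gap is narrowest to Macro-others in the short-term T127 pools.

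Macro-MKI67 made up 4.70% (4.27 to 5.16%) of the long-term macrophages of the 4 clusters, 420 of 8928 cells. The pools ran from 3.71% to 5.59%, with a median of 4.81%. In the T22 pools the share was 9.05, 9.03, 9.48 and 10.7% of 3447 macrophages in all, and in the T127 pools 12.2, 13.1, 14.1 and 10.3% of 1588. The short-term pools lay above all long-term pools, and the T22 and T127 pools overlapped. Over all cells of a pool the shares were closer, at 1.63% (1.48 to 1.80%) in the long-term, 2.19% (1.96 to 2.43%) in the T22 and 2.47% (2.14 to 2.84%) in the T127 experiment. Without the Macro-MKI67 cells that held at least 5 Epcam UMIs, the shares of macrophages were 4.15, 8.65 and 8.79% in these experiments. Such cells of the other clusters were kept in these shares. The experiments differ in tumor and in time of treatment, which cannot be told apart.

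Differences between Macro-MKI67 and the other macrophages were counted among genes with a mean of at least 10 CPM over the clusters compared, 6863 genes in the long-term, 7481 in the T22 and 7596 in the T127 experiment, at a 2-fold difference of CPM plus a pseudocount of 1. Long-term Macro-MKI67 cells were past 2-fold above Macro-M1 in 606 genes (8.83% of those tested) and below it in 150 (2.19%), above Macro-M2 in 374 (5.45%) and below it in 80 (1.17%), and above Macro-others in 429 (6.25%) and below it in 95 (1.38%). T22 cells were above Macro-M1 in 407 genes (5.44%) and below it in 76 (1.02%), above Macro-M2 in 476 (6.36%) and below it in 126 (1.68%), and above Macro-others in 512 (6.84%) and below it in 123 (1.64%). T127 cells were above Macro-M2 in 544 genes (7.16%) and below it in 261 (3.44%), and above Macro-others in 328 (4.32%) and below it in 250 (3.29%). Only 3 T127 cells were named Macro-M1, and they were not compared. More genes were higher than lower in all 8 comparisons on this scale. The excess was smaller when the clusters were scaled to the median ratio over genes, and the order then turned in the T127 comparison with Macro-others, with 251 genes above and 318 below. It turned there as well without the filter on low values, with 680 above and 792 below, and with a mean of at least 50 CPM, with 77 above and 94 below. Under that scaling 445 genes were above and 279 below Macro-M1 and 349 above and 160 below Macro-others in the long-term pools, and 436 were above and 198 below Macro-others in the T22 pools. In UMIs per cell, where the greater depth of Macro-MKI67 counts as expression, the split was larger, and the median log2 ratio of all genes tested was 0.19 to 0.94. Then 1377 genes were above and 39 below Macro-M1, 931 above and 24 below Macro-M2 and 1579 above and 16 below Macro-others in the long-term pools. For T22, 510 were above and 47 below Macro-M1, 666 above and 61 below Macro-M2 and 1306 above and 24 below Macro-others, and in the T127 pools 3186 were above and 56 below Macro-M2 and 3315 above and 79 below Macro-others.

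The genes past 2-fold above every comparator numbered 303 in the long-term (4.41%), 338 in the T22 (4.52%) and 273 in the T127 experiment (3.59%), and those below every comparator 31 (0.452%), 45 (0.602%) and 120 (1.58%). Of 6476 genes tested in all 3 experiments, 187 were higher in all 8 comparisons. Among them were 108 of the 182 tested genes of the cell cycle lists described below, and 79 others. These others include Aspm of the spindle pole, Cenpw of the centromere, Kpna2, a nuclear import factor, Ube2t, an enzyme of crosslink repair, and 9 core histone genes of the Hist1 cluster. Lower in all 8 comparisons were 7 genes, which are described further on.

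**Figure D2:**
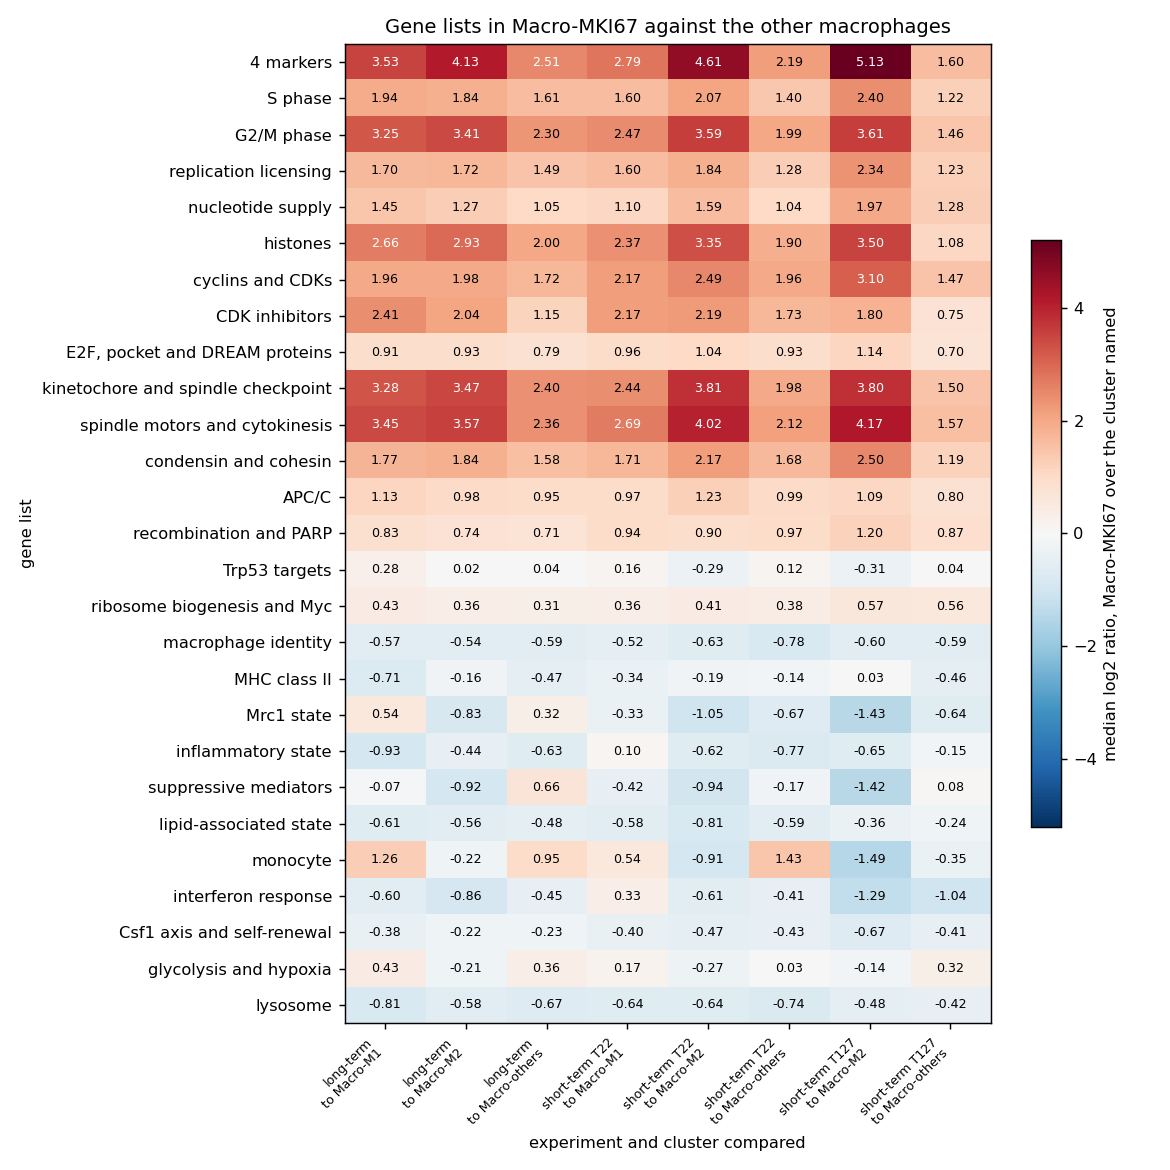
Median log2 ratio of CPM plus 1, Macro-MKI67 to each other macrophage cluster, for each gene list (rows) in each of the 8 comparisons (columns); red is higher and blue lower in Macro-MKI67. The cycle lists are red in every column, with G2/M phase at 3.25, 3.41 and 2.30 in the long-term columns, and the macrophage identity and lysosome lists are blue in every column.

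The S phase list held 43 genes, of which 36 to 40 passed the filter on low values in each experiment, and between 28 and 38 of these were past 2-fold higher in each comparison and none lower. Its median log2 ratio was 1.94, 1.84 and 1.61 to Macro-M1, Macro-M2 and Macro-others in the long-term pools, 1.60, 2.07 and 1.40 in the T22 pools, and 2.40 and 1.22 to Macro-M2 and Macro-others in the T127 pools. The median of all genes tested in these comparisons lay between 0.03 and 0.20, and 4.32 to 8.83% of them were past 2-fold higher. Rrm2, the subunit of ribonucleotide reductase that is made for S phase, had the largest ratios among the tested genes of this list. It stood at 115, 158 and 205 CPM in the lowest, median and highest long-term pool and was 16.05 (13.2 to 19.6), 13.6 (12.2 to 15.2) and 7.30 (6.67 to 8.00) times as high as in Macro-M1, Macro-M2 and Macro-others. Tyms, thymidylate synthase, had 216 CPM and was 7.31, 6.87 and 4.50 times as high. Pclaf, which binds the replication clamp, had 711 CPM (606 to 780 over pools) and was 12.6, 13.7 and 6.40 times as high. Pcna, the clamp itself, and Mcm5 of the replicative helicase had smaller ratios. Pcna stood at 113, 145 and 167 CPM and was 2.98 (2.68 to 3.31), 2.79 (2.58 to 3.02) and 2.43 (2.25 to 2.61) times as high, and Mcm5 3.64, 3.48 and 3.04 times. All these genes were higher in every pool of every experiment.

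Histone genes marked the same side of the cycle. Their list held 17 genes, and its median log2 ratio was 2.66, 2.93 and 2.00 in the long-term, 2.37, 3.35 and 1.90 in the T22, and 3.50 and 1.08 in the T127 comparisons, with 8 to 15 of 14 to 16 tested members past 2-fold higher. Hist1h1b, a linker histone that is made with DNA replication, had 1227 CPM in long-term Macro-MKI67 cells (894, 1103 and 1747 in the lowest, median and highest pool). It had 930.1, 1133, 1593 and 1879 CPM in the T22 pools and 1724, 2476, 2070.4 and 1270.5 CPM in the T127 pools, which overlapped. It was 11.4 (10.7 to 12.1), 20.2 (19.3 to 21.1) and 6.83 (6.62 to 7.05) times as high as in the long-term comparators. Hist1h3c differed more between the experiments, with 133 CPM in the long-term, 561 in the T22 and 126 in the T127 cells. The kit used captures polyadenylated RNA, and most replication-dependent histone transcripts end in a stem loop and not in a poly(A) tail, so these levels are those of the captured molecules only.

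The G2/M list was further apart than the S phase list. Of its 54 genes, 49 or 50 were tested in each experiment, of which 43 to 48 were past 2-fold higher and none lower, and its median log2 ratio was 3.25, 3.41 and 2.30 in the long-term, 2.47, 3.59 and 1.99 in the T22, and 3.61 and 1.46 in the T127 comparisons. Ccna2, the cyclin of S phase and G2, stood at 124, 138 and 177 CPM in the lowest, median and highest long-term pool and at 16.9 (13.8 to 20.9), 16.9 (14.9 to 19.1) and 6.69 (6.10 to 7.33) times the level in Macro-M1, Macro-M2 and Macro-others. Ccnb1, the mitotic cyclin, was 14.9, 17.8 and 5.88 times as high and its kinase Cdk1 12.2, 10.6 and 5.22 times. Cdk1 had in the T22 pools 183, 231, 203 and 224 CPM and in the T127 pools 197, 218, 296 and 247 CPM, so that the experiments overlapped.

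All 17 or 18 tested genes of the list for spindle motors and cytokinesis were past 2-fold higher in each of the 8 comparisons, with median log2 ratios of 3.45, 3.57 and 2.36 in the long-term, 2.69, 4.02 and 2.12 in the T22, and 4.17 and 1.57 in the T127 comparisons. Kif11, the kinesin that pushes the spindle poles apart, had 106 CPM (79.4 to 142 over the long-term pools) and was 12.0 (9.78 to 14.9), 17.8 (15.3 to 20.6) and 6.60 (5.94 to 7.35) times as high as in the long-term comparators. Kif23, a motor of the central spindle, was 14.4, 13.3 and 6.42 times as high, and Ect2, the exchange factor that places the contractile ring, 10.4, 14.9 and 7.39 times. The list of kinetochore and spindle checkpoint genes had medians of 3.28, 3.47 and 2.40 in the long-term pools. Aurkb, the kinase of the chromosomal passenger complex, stood at 113 CPM and was 11.6, 15.5 and 6.19 times as high, Ska1, which ties kinetochores to microtubules, 14.9, 14.9 and 7.22 times, and Sgo2a, a protector of centromere cohesion that was in no list, 17.5, 17.5 and 6.29 times. Fbxo5, an inhibitor of the anaphase-promoting complex, was 16.1, 17.5 and 6.55 times as high. It belongs to the list for that complex (APC/C), whose median log2 ratios were 1.13, 0.98 and 0.95.

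Some regulators of the cycle stood apart in Macro-MKI67 and others did not. In the list of CDK inhibitors, Cdkn2c, which binds Cdk4 and Cdk6, and Cdkn3, a phosphatase of Cdk1 and Cdk2, were high in Macro-MKI67. Cdkn2c stood at 55.8, 73.3 and 123 CPM in the lowest, median and highest long-term pool and was 7.83 (6.40 to 9.64), 6.41 (5.66 to 7.26) and 3.70 (3.32 to 4.13) times as high as in Macro-M1, Macro-M2 and Macro-others, and Cdkn3 8.96, 9.96 and 4.32 times. Cdkn1a, the inhibitor p21, differed little. It had 429 CPM (294 to 545 over pools), 1.33 (1.27 to 1.40) times the level in Macro-M1, 1.01 (0.972 to 1.05) times that in Macro-M2 and 1.37 (1.32 to 1.43) times that in Macro-others, and in the T127 pools it was 1.62-fold lower (1.56 to 1.69) than in Macro-M2. Among the cyclins and their kinases, whose list had long-term medians of 1.96, 1.98 and 1.72 over 14 tested genes and of 3.08, 2.74 and 2.19 over all 18 members, Ccnd1, the cyclin that growth factors induce in G1, had 178 CPM. That was 1.18 (1.10 to 1.27), 1.01 (0.954 to 1.08) and 0.841 (0.791 to 0.894) times the comparators, and its pools were higher than Macro-M2 in 3 and lower in 5. E2f8, a repressor of the E2F family that is itself made in S phase, was 8.74, 8.91 and 4.93 times as high. The list of 12 Trp53 targets had medians of 0.28, 0.02 and 0.04 in the long-term, 0.16, -0.29 and 0.12 in the T22, and -0.31 and 0.04 in the T127 comparisons. Of its 8 or 9 tested members none was past 2-fold higher, against 4.32 to 8.83% of all genes tested. With so few members that count is near this share. Against T127 Macro-others 2 members were past 2-fold lower, as were 3.29% of all genes tested. The list for ribosome biogenesis and Myc had medians of 0.31 to 0.57.

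Olaparib acts on PARP enzymes, and cells that lack homologous recombination are the ones it harms most. The list of 26 genes for recombination and PARP enzymes had median log2 ratios of 0.83, 0.74 and 0.71 in the long-term comparisons over 9 tested genes, 0.94, 0.90 and 0.97 in the T22 comparisons over 14 and 1.20 and 0.87 in the T127 comparisons over 13. Between 2 and 7 of these were past 2-fold higher, against 4.32 to 8.83% of all genes tested, and none was lower. Brca1, a core factor of homologous recombination, had 32.5 CPM in the long-term cells (21.97, 31.4 and 44.0 in the lowest, median and highest pool), and 49.1, 49.6, 43.0 and 56.8 CPM in the T22 and 29.9, 43.3, 38.6 and 36.9 CPM in the T127 pools. It was 6.94 (5.14 to 9.51), 8.49 (6.88 to 10.5) and 4.83 (4.03 to 5.79) times as high as in the long-term comparators, higher in every pool. Parp1, the main target of olaparib, differed little: 53.3 CPM in the long-term cells was 1.23 (1.07 to 1.41), 1.42 (1.26 to 1.59) and 1.18 (1.05 to 1.32) times the comparators, and in the T22 and T127 pools the ratios lay between 1.40 and 1.63. Whether these levels differed between olaparib and vehicle was not tested, since cells could not be assigned to tumors.

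Cells were also described one at a time. To remove the difference in depth, each cell was thinned to 3000 UMIs and the UMIs of the S phase and G2/M lists were counted; 1 long-term, 2 T22 and 1 T127 Macro-MKI67 cell were shallower and were left out. The median Macro-MKI67 cell held 7 S phase and 29 G2/M UMIs in the long-term, 9 and 34 in the T22 and 10 and 24 in the T127 experiment. The median cell of the other macrophage clusters held 1 or 2 S phase and 3 or 4 G2/M UMIs. At least 10 G2/M UMIs were found in 89.98% of long-term (377 of 419), 90.2% of T22 (296 of 328) and 78.7% of T127 (155 of 197) Macro-MKI67 cells. In Macro-M1, Macro-M2 and Macro-others the same share was 5.70, 5.70 and 11.6% in the long-term pools and 9.41, 4.63 and 17.2% in the T22 pools, and in Macro-M2 and Macro-others of the T127 pools it was 2.90 and 16.02%. The B cells were a poor measure of background, since few reached 3000 UMIs: 27.3% of them in the long-term pools (12 of 44, with 265 left out as shallower) and none of 17 in the T22 pools had so many, their median depth being 2082 and 2862.5 UMIs. The name Macro-MKI67 did not take in every macrophage with many G2/M UMIs. Of the macrophages with at least 10, it held 35.0% in the long-term (377 of 1076), 46.8% in the T22 (296 of 633) and 69.8% in the T127 pools (155 of 222), and Macro-others held a further 41.3, 30.5 and 14.9%. The rest were in Macro-M1 and Macro-M2, and in the T127 pools in Macro-M2.

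Genes of both phases often stood in the same cell. At 10 or more UMIs of a list, 38.2% of long-term, 41.2% of T22 and 42.1% of T127 cells held both S phase and G2/M UMIs, 51.8, 49.1 and 36.5% G2/M alone, and 3.82, 5.79 and 9.14% S phase alone. These shares depend on the number of UMIs required, since the lists differ in length and level, and they give no share of cells in a phase. The T22 experiment held a second dividing cluster, Tprf-MKI67, whose 417 cells with enough UMIs had a median of 14 S phase and 31 G2/M UMIs, against 9 and 34 in Macro-MKI67.

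**Figure D3:**
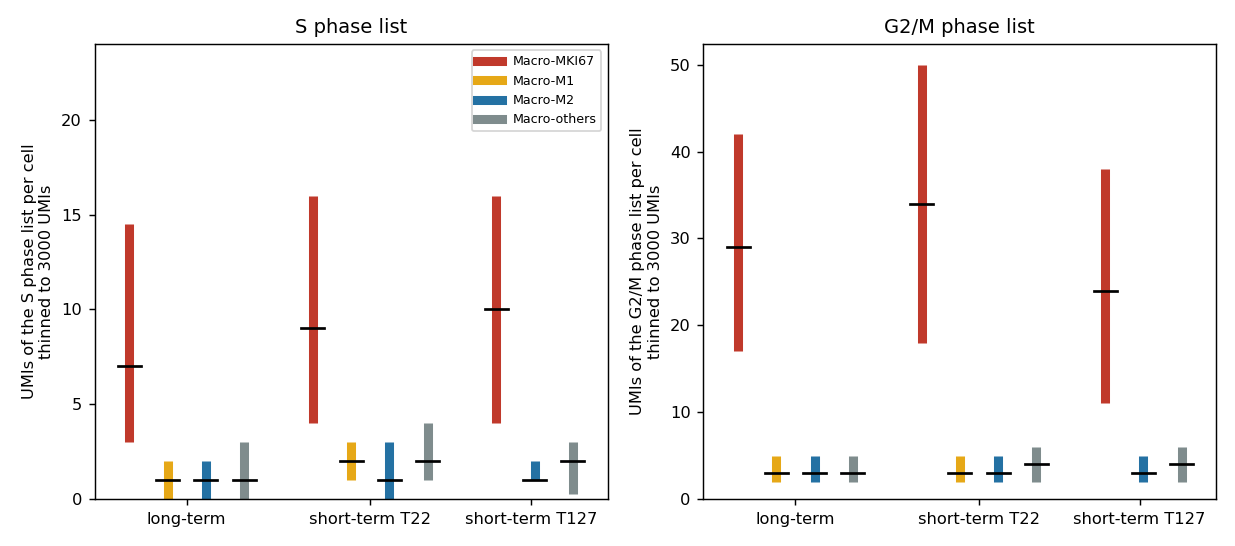
UMIs of the S phase and of the G2/M list per cell, each cell thinned to 3000 UMIs, for the macrophage clusters of each experiment; black lines are medians and bars run from the first to the third quartile over cells. The Macro-MKI67 medians of 29, 34 and 24 G2/M UMIs lie above the 3 or 4 of the other macrophage clusters, and the quartile bars of the G2/M list do not overlap.

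The macrophage genes themselves were lower in share of RNA but present. All 15 genes of the macrophage identity list were measured, and its median log2 ratio was -0.57, -0.54 and -0.59 to Macro-M1, Macro-M2 and Macro-others in the long-term, -0.52, -0.63 and -0.78 in the T22, and -0.60 and -0.59 in the T127 comparisons, while 0 to 4 of the genes were past 2-fold lower and none higher. Of all genes tested, 1.02 to 3.44% were past 2-fold lower and 4.32 to 8.83% past 2-fold higher. In UMIs per cell the T127 medians turned to 0.26 and 0.25, and the long-term median to Macro-others was -0.01. Csf1r, the receptor that macrophages depend on for survival and division, stood at 312, 364 and 438 CPM in the lowest, median and highest long-term pool, at 611, 732, 632 and 791 CPM in the T22 pools and at 343, 486, 411 and 411 CPM in the T127 pools. It was 1.71-fold (1.64 to 1.79), 1.44-fold (1.39 to 1.51) and 1.67-fold (1.60 to 1.74) lower than in Macro-M1, Macro-M2 and Macro-others, in 8 of 8 long-term pools each, and 1.45-fold and 1.22-fold lower in the T127 comparisons, although in UMIs per cell its ratio there was 1.25 and 1.47. C1qa, a chain of the complement protein C1q, stood at 6529 CPM in the long-term cells and was 1.54-fold, 1.32-fold and 1.55-fold lower. Adgre1, which encodes the F4/80 antigen, had 69.9 CPM, 1.496-fold to 1.65-fold below the long-term comparators, and in the T127 pools it was 2.62-fold (2.27 to 3.04) and 3.06-fold (2.57 to 3.64) lower than in Macro-M2 and Macro-others.

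Lysosomal genes were lower by a like amount. The median log2 ratio of the 14 lysosome genes was -0.81, -0.58 and -0.67 in the long-term, -0.64, -0.64 and -0.74 in the T22, and -0.48 and -0.42 in the T127 comparisons, the last 2 of which turned positive in UMIs per cell. The list of MHC class II genes, which present antigen to helper T cells, was lowest against Macro-M1 in the long-term and T22 pools. Its 9 genes had medians of -0.71, -0.16 and -0.47 in the long-term, -0.34, -0.19 and -0.14 in the T22, and 0.03 and -0.46 in the T127 comparisons, and the signs of the comparisons with Macro-M2 and Macro-others turned in UMIs per cell except against T127 Macro-M2, which was positive on both scales. H2-Ab1, a chain of the class II molecule, had 5501, 7124 and 9515 CPM in the lowest, median and highest long-term pool and was 2.43-fold (2.41 to 2.45) lower than in Macro-M1, 1.32-fold lower than in Macro-M2 and 1.74-fold lower than in Macro-others. In the T127 pools it had 7883, 6115, 6946 and 4739 CPM, 1.09 (1.07 to 1.10) times the level in Macro-M2. Without the 64 T127 Macro-MKI67 cells that held at least 5 Epcam UMIs, described at the end, the T127 level of H2-Ab1 was 3258 CPM. Its log2 ratio then turned to -0.87 against the whole of Macro-M2. The median of the class II list then was -0.82 and -1.53 to T127 Macro-M2 and Macro-others. These comparators kept their own Epcam-bearing cells, 9.71 and 22.5% of them, and the ratios without those as well were not tested. In the same setting the list medians to Macro-M1, Macro-M2 and Macro-others were -1.15, -0.54 and -0.91 in the long-term and -0.42, -0.30 and -0.28 in the T22 pools. Cd74, the invariant chain, followed H2-Ab1 with 8137 CPM in the long-term cells, 2.29-fold lower than in Macro-M1.

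Genes of resident macrophages differed among themselves. The Mrc1 state list of 17 genes, named for the mannose receptor of tissue-resident and alternatively activated macrophages, had medians of 0.54, -0.83 and 0.32 in the long-term comparisons, with 6, 0 and 4 of 15 tested genes past 2-fold higher and 2, 4 and 1 lower. Of all genes tested there, 8.83, 5.45 and 6.25% were past 2-fold higher and 2.19, 1.17 and 1.38% lower. Summed over the list, long-term Macro-MKI67 cells had 3065 CPM, against 3079, 5716 and 3388 CPM in Macro-M1, Macro-M2 and Macro-others. Mrc1 itself stood at 283, 337 and 440 CPM in the lowest, median and highest long-term pool, 3.22 (3.00 to 3.45) times the level in Macro-M1 and 2.19 (2.09 to 2.30) times that in Macro-others but 1.56-fold (1.495 to 1.63) below Macro-M2, each in 8 of 8 pools. In the T22 pools, with 84.3, 178, 121 and 107 CPM, it was 1.91 and 2.72 times as high as in Macro-M1 and Macro-others and 1.53-fold below Macro-M2. In the T127 pools Mrc1 had 585, 652, 652 and 556 CPM and was below both comparators, 1.70-fold and 1.13-fold, though not in UMIs per cell, where the ratios were 1.07 and 1.59. The median of the tested genes of the list, Mrc1 included, was lower in the short-term than in the long-term comparison with each cluster. It was -0.33, -1.05 and -0.67 in the T22 and -1.43 and -0.64 in the T127 pools, the last of which was 0.20 in UMIs per cell. Over all 17 members the order against Macro-M2 was different, with medians of -0.91 in the long-term, -0.83 in the T22 and -1.48 in the T127 pools.

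The median log2 ratio of the tested monocyte genes, 8 to 11 of 11, was 1.26, -0.22 and 0.95 in the long-term, 0.54, -0.91 and 1.43 in the T22, and -1.49 and -0.35 in the T127 comparisons. Over all 11 members, those too low to be tested included, it was -1.68 against T22 Macro-M2 and -0.47 against long-term Macro-M2. In UMIs per cell the median of the tested genes turned to 0.25 against long-term Macro-M2 and to 0.44 against T127 Macro-others. S100a4, a calcium-binding protein of motile cells, stood at 427, 827 and 1249 CPM in the lowest, median and highest long-term pool. It was 2.73 (2.62 to 2.84), 1.38 (1.34 to 1.42) and 2.35 (2.28 to 2.42) times as high as in Macro-M1, Macro-M2 and Macro-others, and 8.85 (8.43 to 9.29) times as high as in T22 Macro-others. Ccr2, the chemokine receptor by which monocytes leave the marrow and enter tissue, was 2.40 (1.93 to 2.99) and 2.56 (2.16 to 3.02) times as high as in Macro-M1 and Macro-others, in 8 of 8 pools, and 1.05 (0.898 to 1.22) times as high as in Macro-M2. Fn1, fibronectin, was 3.39 and 4.55 times as high as in Macro-M1 and Macro-others and 1.16-fold below Macro-M2. Ly6c2, a surface antigen of newly arrived monocytes, was by contrast below Macro-M2, with 14.96 CPM in the long-term, 12.9 in the T22 and 51.0 in the T127 cells, 6.11-fold (5.01 to 7.52), 10.4-fold (8.11 to 13.4) and 11.0-fold (9.64 to 12.6) lower. Against the other comparators its log2 ratio was -0.31 to Macro-M1 and -0.21 to Macro-others in the long-term, -0.17 and 1.09 in the T22, and -1.59 to Macro-others in the T127 pools, and the T22 ratio to Macro-others was -1.63 without pool 1. Its T22 level came from 1 pool, the 4 pools standing at 48.3, 0, 3.84 and 0 CPM. Chil3, a chitinase-like protein, varied widely between pools, from 112 to 3406 CPM around a median of 401 in the long-term cells. Over the summed pools it had 794 CPM against 37.1, 1039 and 141 CPM in Macro-M1, Macro-M2 and Macro-others. The log2 ratio to Macro-M1 was 4.38, and 3.29 and 5.64 without pools 5 and 7. Its T22 level was 4.56 CPM, of which 83.3% came from 1 cell, against 93.9 CPM in Macro-M2, and its T127 level was 229 against 778 CPM.

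Genes that interferons induce were lower in the long-term and T127 pools than in the comparators. The interferon response list of 16 measured genes had medians of -0.60, -0.86 and -0.45 in the long-term comparisons, with 6, 6 and 3 of 16 tested genes past 2-fold lower and none higher, and of -1.29 and -1.04 in the T127 comparisons, with 13 and 8 lower. Of all genes tested, 2.19, 1.17 and 1.38% were past 2-fold lower in the long-term and 3.44 and 3.29% in the T127 comparisons. In the T22 pools the medians were 0.33, -0.61 and -0.41. There, 2 of 14 tested genes were past 2-fold higher than in Macro-M1, against 5.44% of all genes tested. In UMIs per cell the comparisons with Macro-others turned positive in the long-term and T22 pools. Rsad2, the antiviral protein viperin, stood at 5.79, 20.7 and 31.4 CPM in the lowest, median and highest long-term pool against 227, 203 and 90.4 CPM in the comparators, 11.5-fold (9.64 to 13.8), 10.3-fold (8.66 to 12.3) and 4.58-fold (3.85 to 5.48) lower in 8 of 8 pools. Its T22 pools were uneven, at 124, 100.1, 7.68 and 12.99 CPM, and were higher than Macro-M1 in 2 pools and lower in 2. Ifit2 had 47.6 CPM and was 3.86-fold, 3.82-fold and 2.49-fold lower in the long-term and 3.95-fold and 3.53-fold lower in the T127 comparisons. Cxcl9, a chemokine that interferon gamma induces and that draws T cells, was 7.50-fold, 5.83-fold and 3.11-fold lower in the long-term comparisons, while Cxcl10, of the same group, was 1.56-fold and 1.17-fold lower than in Macro-M1 and Macro-M2 and 1.27 times as high as in Macro-others. Cxcl10 was higher than in Macro-M1 in all 4 T22 pools, 3.40 times (3.21 to 3.60). The inflammatory list of 16 genes had medians of -0.93, -0.44 and -0.63 in the long-term pools, the second of which was 0.02 in UMIs per cell. Those of the T22 pools were 0.10, -0.62 and -0.77, with 9 of 14 tested genes above 0 against Macro-M1. Without the Macro-MKI67 cells with at least 5 Epcam UMIs, and with Macro-M1 left whole, the first was -0.033. Those of the T127 pools were -0.65 and -0.15, and 0.21 and 0.68 in UMIs per cell. Il12b, a subunit of interleukin-12, was nearly absent from long-term Macro-MKI67 cells at 0.898 CPM, against 17.7, 9.21 and 18.2 CPM.

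The 7 genes past 2-fold lower in all 8 comparisons were Kdm5b, Tcp11l2, Ccl5, Slfn5, Selenop, Vcam1 and Gdpd3. Kdm5b encodes a demethylase of histone H3 lysine 4. It stood at 4.63, 5.47 and 8.01 CPM in the lowest, median and highest long-term pool, at 2.30, 2.52, 3.07 and 3.42 CPM in the T22 pools and at 5.61, 3.27, 5.15 and 4.47 CPM in the T127 pools. It was 2.57-fold (1.80 to 3.76), 3.20-fold (2.31 to 4.55) and 2.74-fold (1.97 to 3.90) lower than in the long-term comparators, 5.96-fold, 5.39-fold and 4.45-fold lower in the T22 and 5.05-fold and 2.75-fold lower in the T127 comparisons, in every pool. Tcp11l2, whose role is little known, had 6.13 CPM in the long-term cells against 24.8, 26.6 and 24.1 CPM. Selenop, the plasma selenium carrier that resident macrophages make in quantity, stood at 300.2, 481 and 863 CPM in the lowest, median and highest long-term pool, and was 2.11-fold (2.03 to 2.19), 2.78-fold (2.69 to 2.88) and 2.35-fold (2.27 to 2.43) lower in 8 of 8 pools, and 5.62-fold (5.10 to 6.21) lower than in T127 Macro-others. Ccl5, a chemokine for T cells and monocytes, had 53.3 CPM against 138, 215 and 216 CPM, and in the T127 pools 40.0 CPM against 1001 CPM in Macro-others. Gdpd3, an enzyme of lysophospholipid metabolism, had 148 CPM and was 2.64-fold, 2.27-fold and 2.40-fold lower. Slfn5, of the Schlafen family that interferons induce, had 60.7 CPM in the long-term cells against 145, 196 and 132 CPM. Vcam1, an adhesion molecule, stood at 209, 273 and 445 CPM in the lowest, median and highest long-term pool and was 3.22-fold (3.07 to 3.37), 2.22-fold (2.12 to 2.33) and 2.95-fold (2.82 to 3.09) lower in 8 of 8 pools. In UMIs per cell all 7 genes were lower in every comparison too, with the ratio of Kdm5b between 0.183 and 0.652. Their choice at 2-fold fixed this order in advance, since mean UMIs per cell differed by less than 2-fold between Macro-MKI67 and each comparator.

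To ask which of the other macrophages a Macro-MKI67 cell resembled apart from its cycle, each cell was set beside the summed profiles of the comparators by a multinomial likelihood and given the name of the most likely one. Genes of the cycle lists, and genes higher in Macro-MKI67 than in all comparators, were left out. In the long-term pools 51.7% (46.8 to 56.5%) of 420 cells were nearest to Macro-M2, 42.6% (37.8 to 47.5%) to Macro-others and 5.71% (3.70 to 8.38%) to Macro-M1. The pools ran from 41.7 to 67.2% for Macro-M2 and from 0 to 8.62% for Macro-M1. The same procedure, with profiles made from the other pools, named 38.4% of the 8508 comparator cells Macro-M1, 29.8% Macro-M2 and 31.8% Macro-others, while 11.5, 41.9 and 46.5% of them carry these names in the annotation, so that it named Macro-M1 too often there. In the T22 pools the order was different. There, 52.7% (47.2 to 58.2%) of 330 cells were nearest to Macro-M1, 25.5% to Macro-M2 and 21.8% to Macro-others, against 38.0, 16.4 and 45.6% of the comparator cells by the same procedure and 38.6, 21.5 and 39.9% by the annotation. In the T127 pools 49.0% (41.8 to 56.2%) of 198 cells were nearest to Macro-M2 and 51.0% to Macro-others, against 71.7 and 28.3% of the comparator cells by the procedure and 84.6 and 15.4% by the annotation. Without the Macro-MKI67 cells that held at least 5 Epcam UMIs, the T127 shares nearest to Macro-M2 and Macro-others were 67.9 and 32.1%. The profiles of these clusters still held such cells, 9.71 and 22.5% of their cells. The names could be told apart only in part, as the same procedure gave long-term cells of Macro-M1, Macro-M2 and Macro-others back their own name in 70.7, 50.8 and 45.7% of cases, T22 cells in 56.4, 41.8 and 66.6%, and T127 cells of Macro-M2 and Macro-others in 79.2 and 69.5%. In the long-term pools it named 28.8% of Macro-M2 and 38.9% of Macro-others cells Macro-M1. Over all genes, with the cycle lists and the genes raised in Macro-MKI67 restored together, the shares nearest to Macro-others were 56.4, 50.6 and 80.3%.

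**Figure D4:**
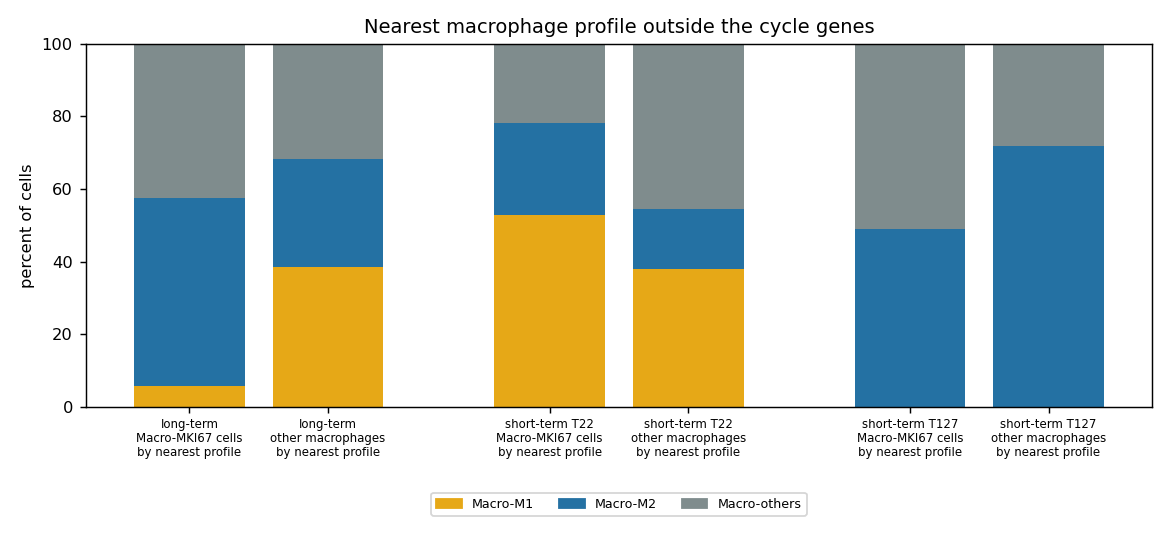
Percent of Macro-MKI67 cells nearest to each other macrophage profile over genes outside the cycle lists and not raised in Macro-MKI67, beside the same for the cells of the other macrophage clusters, by experiment; each stacked bar starts at 0 and adds up to 100%, and no error is drawn. Macro-M1 is nearest for 5.71% of long-term and 52.7% of T22 Macro-MKI67 cells, against 38.4 and 38.0% of the comparator cells, of which the annotation names 11.5 and 38.6% Macro-M1.

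Macro-MKI67 cells of the short-term models differed from each other in many genes. Of 7683 genes tested, 414 (5.39%) were past 2-fold higher in T22 and 508 (6.61%) past 2-fold higher in T127, and the split was 509 and 411 when scaled to the median ratio and 215 and 1378 in UMIs per cell. Each model was 4 pools of mixed tumors, so that no test was made. Of 212 cycle genes tested, 13 (6.13%) were past 2-fold higher in T22 and 2 (0.943%) in T127, and their median log2 ratio of T22 to T127 was 0.19, against -0.12 over all genes. Of the 907 other genes past 2-fold, 646 (71.2%) were also past 2-fold the same way between T22 and T127 in Macro-M2, and 0 the opposite way. Of all 7471 genes tested outside the cycle lists, 11.3% were past 2-fold either way between the models in Macro-M2.

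Ccl17, a chemokine for regulatory and helper T cells, had 9.97, 17.7, 1.54 and 4.79 CPM in the T22 and 1388, 557, 378 and 883 CPM in the T127 pools. A minority carried it, as 57 of the 198 T127 cells held 98.9% of its UMIs. Arg1, arginase of alternatively activated macrophages, had 213 CPM in T127, and its 12 UMIs in T22 all came from 1 cell. Chil3 had 4.56 CPM in T22 and 229 in T127, Ccn3, a matrix protein, 0.951 and 176 CPM, and AA467197 3.42 and 331 CPM. Asgr2, a lectin of galactose-bearing glycoproteins, had 10.3 and 666 CPM, and Inhba, the subunit of activin A, 0 and 94.9 CPM. Ctsk, the protease cathepsin K, had 0.380 and 138 CPM, but 46.9% of its T127 UMIs came from 1 cell. Higher in T22 were Dnase1l3, a nuclease that clears extracellular DNA, with 93.9 CPM against 0.689 CPM, and Tlr12, a receptor for profilin, with 46.2 CPM (36.0 to 56.1 over pools) against 0. Igfbp5, with 72.8 and 0 CPM, Wfdc18, with 138 and 1.15 CPM, and Ecrg4, with 57.4 and 0.459 CPM, were also higher in T22. In the T22 pools these 3 secreted proteins had 9049, 34152 and 9728 CPM in the malignant cluster with the higher level, Malign_2 or Malign_3. In the T127 pools AA467197 and Inhba had 171 and 156 CPM in the higher of the malignant clusters Malign_0 and Malign_1. The part of free tumor RNA in these macrophage levels was not tested.

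**Figure D5:**
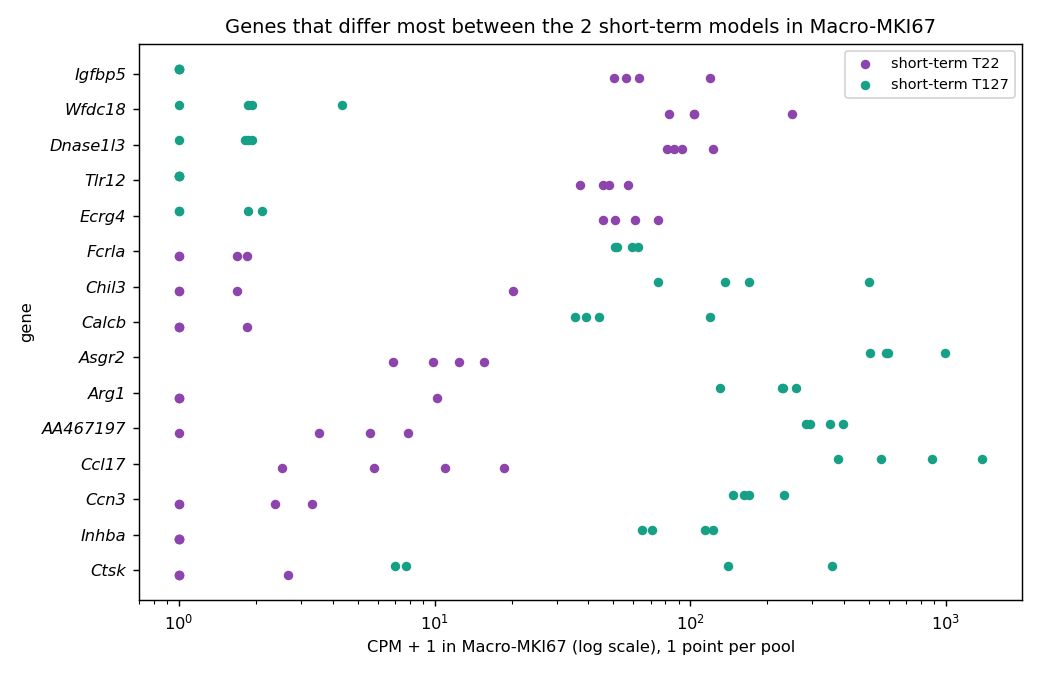
CPM plus 1 (log scale) in Macro-MKI67 of the 15 genes that differ most between the short-term T22 and T127 experiments, with 1 point per pool. The genes were chosen for their difference, and the 4 T22 and the 4 T127 points of each do not overlap, which held for 38.6% of all 7683 genes tested, as for Ccl17 with at most 17.7 CPM in T22 and at least 378 CPM in T127.

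Transcripts of other cell types were summed over marker lists. The T cell list of 6 genes summed to 33.5 CPM in the long-term (2.60 to 120 over pools), 56.9 in the T22 (4.79 to 166) and 13.6 in the T127 cells (0 to 38.4), and the B cell list of 5 genes to 84.2, 154 and 18.1 CPM, with Cd79a at 0 in the long-term and T127 cells. The NK cell list of 5 genes summed to 29.0 CPM in the long-term (0 to 200.3 over pools), 46.8 in the T22 (2.30 to 177) and 3.22 in the T127 cells. In each of the first 2 experiments 1 cell held 98.3 and 98.6% of the UMIs of Gzma, a granule protease of killer cells. The same held for the genes at the top of the long-term ranking by ratio to the nearest comparator. Gzmd and Gzmc stood first and second at 39.2 and 52.4 CPM, but 98.9 and 98.0% of their UMIs were in 1 cell of pool 8, while the other 18 of the leading 20 were cycle and histone genes. The fibroblast list of 5 genes summed to 278 CPM in the long-term (52.4 to 771 over pools), against 59.6 to 125 CPM in the comparators, and 6 of the 420 cells held 88.8% of the 1712 UMIs of its collagen-binding member Dcn. The neutrophil list of 5 genes summed to 91.3, 1.33 and 93.0 CPM with Ly6g at 0 in all 3 experiments, the endothelial list of 4 to 6.13, 12.0 and 6.66 CPM, and the plasmacytoid dendritic cell list of 4 to 62.7, 89.0 and 85.2 CPM. The list of 7 genes for conventional dendritic cells summed to 45.2, 164 and 83.1 CPM, with the receptor Flt3 at 0 in T127, where Macro-others reached 604 CPM. The mitochondrial share of UMIs was 0.605, 0.803 and 1.25%, close to the 0.620 to 0.665%, 0.903 to 0.953% and 1.07 to 1.21% of the comparators.

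The epithelial list had its highest sum of the 3 experiments in T127. Its 6 genes summed to 262 CPM in the long-term (159 to 484 over pools), 245 in the T22 (186 to 308) and 690.4 in the T127 cells (576 to 946), where Cldn3 and Cldn7 were at 0, against 298 CPM in Macro-M2 and 824 CPM in Macro-others. Its adhesion gene Epcam was concentrated in a minority of cells. At least 5 UMIs of Epcam, a limit chosen after its values were seen, were found in 52 of 420 long-term (12.4%), 35 of 330 T22 (10.6%) and 64 of 198 T127 cells (32.3%). Such cells were found in the comparators too, as 1.93, 5.47 and 5.38% of long-term Macro-M1, Macro-M2 and Macro-others cells, 7.48, 2.84 and 1.53% of those of T22, and 9.71 and 22.5% of T127 Macro-M2 and Macro-others cells, whose depth was lower than that of Macro-MKI67, with a median of 11285.5 and 11111 UMIs in T127. Scaled for depth, Epcam stood at 427 CPM in T127 Macro-MKI67 and at 579 CPM in T127 Macro-others, and Ccl17 at 780.01 and 1424 CPM. Cdh1, the adhesion protein E-cadherin, was higher in them than in the rest, at 103 against 22.4 CPM in the long-term, 273 against 15.7 CPM in the T22 and 425 against 159 CPM in the T127 cells, while the keratins Krt8 and Krt18 stayed at or below 20 CPM. Set beside the rest of Macro-MKI67 in the T127 pools, they had 2215 against 70.0 CPM of Ccl17, 13016 against 3258 CPM of H2-Ab1, 7.63 against 67.6 CPM of Adgre1, 1.39 against 56.7 CPM of Apoe, a lipid carrier, and 1419 against 3413 CPM of C1qa. The long-term cells gave the same order, with 1258 against 3.68 CPM of Ccl17, 11547 against 6618 CPM of H2-Ab1, 6.13 against 80.8 CPM of Adgre1 and 2406 against 7236 CPM of C1qa. The T22 cells held 13523 against 10517 CPM of H2-Ab1, 9565 against 9303 CPM of Cd74, 1167 against 4676 CPM of C1qa, 14.6 against 111 CPM of Adgre1 and 80.4 against 7.21 CPM of Flt3, a growth factor receptor of dendritic cells. Flt3 was at 1.02 CPM, or 1 UMI, in the Epcam-bearing long-term cells and at 0 in those of T127. Of the other genes of the conventional dendritic cell list, only Cd209a, Ccr7 and Zbtb46 were compared. They were higher in the Epcam-bearing T127 cells, with 166 against 17.9 CPM of Cd209a, 18.7 against 4.12 CPM of Ccr7 and 13.2 against 0.687 CPM of Zbtb46, the last from 19 and 2 UMIs. Cd209a had 102 against 24.2 CPM in the long-term and 139 against 114 CPM in the T22 cells. Ccr7 had 3.06 against 2.28 CPM in the long-term and 40.9 against 9.40 CPM in the T22 cells. Zbtb46 had 2 and 3 UMIs in the long-term cells and 20.5 against 3.93 CPM in the T22 cells. Mki67 was present in both sets, at 409 against 495 CPM, 746 against 1101 CPM and 689 against 710.1 CPM in the long-term, T22 and T127 cells. Adgre1 and C1qa were thus lower in the Epcam-bearing cells of each experiment, and H2-Ab1 was higher, while Cd74 differed little in T22. Of other macrophage genes in T127, Cd68 had 327 against 447 CPM, Csf1r 327 against 459 CPM and Tyrobp 1641 against 2066 CPM. Mrc1 was higher there, at 674 against 587 CPM. It was lower in the long-term and T22 cells, at 326 against 346 CPM and 55.6 against 131 CPM. No cell type name is given to that minority, whose median depth of 18628, 19293 and 22626.5 UMIs stood beside 14641.5, 15702 and 22633 UMIs in the rest, and the part that joined cells have in it was not tested.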

How the data were processed

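Single cells of 16 pools of tagged mouse tumors were profiled with the 10x Genomics 3' v3.1 kit. According to the methods and the submitters' processing notes, the authors used Cell Ranger (6.0.0) and the mouse build GRCm38, counted intronic reads, filtered cells with SCANPY, removed doublets with Scrublet, and scaled the data to remove effects of the batch and the cell cycle before Leiden clustering. The deposited matrices hold raw UMI counts of 32285 genes per cell, one matrix per pool, and the deposited annotation lists the cells that the authors kept and their clusters. No further filter on cells was applied except the removal of repeated long-term barcodes.

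UMI counts were summed over the cells of a cluster in each pool, and over pools per experiment, in Python 3.11.15, and divided by the sum to give CPM. Tools were scipy 1.17.1 for intervals, matplotlib 3.10.9 for figures, pandas 2.3.3 and numpy 2.4.6. Pools held 32298013 to 43985662 UMIs in the long-term, 40270841 to 42436039 in the T22 and 49690430 to 55600377 in the T127 experiment. Log2 ratios used CPM plus a pseudocount of 1, and ratios without it have exact conditional binomial 95% intervals, which cover counting error only. No test across samples was made, since pools are mixtures of tumors and clusters were made from the same counts. The 36 gene lists, of 463 genes of which 1 was not matched, and the cluster were chosen with earlier results of these data known. Named genes were the 4 markers, genes of the lists by role, and the 20 leading and 15 lowest genes by long-term ratio to the highest and the lowest of the comparators, and, between models, the 15 with the largest difference; Slfn5 and Vcam1 were added after their values were seen. Each cell was thinned to 3000 UMIs for counts of cycle UMIs, and the nearest profile of each unthinned cell was the one with the highest multinomial likelihood over genes outside the cycle lists and not raised in Macro-MKI67. Counts of genes, intervals and nearest profiles were tested on simulated data. For nearest profiles these were cells drawn from the summed profiles, without further differences between cells, so they do not show how well real cells are named. How often real cells got back their own name is given above. Alternatives were another scaling, pseudocount or filter, and all copies of shared barcodes. Others left out each pool, kept cells with at least 1000 genes, or left out the deepest 5% of cells. UMIs per cell, leaving out each gene's highest cell, and limits of 10 and 20 cycle UMIs were added after the data were seen. So were all alternatives for the contrast of the models, and leaving out the Epcam-bearing cells of Macro-MKI67 alone. Results of some members of these lists are not reported here.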

Additional observations from a re-analysis of the deposited data

Results flagged for a closer look

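In 114 groups of 4 to 8 pools, of which 108 held the summed CPM of a gene list in Macro-MKI67 and the others its share of macrophages or its median depth, a pool far from the others was looked for. It was found in 9 groups, all of list sums, where chance marks about 1 group in 20. In the long-term pools these were the highest pools for the suppressive mediators, at 5631 CPM against a median of 2495, for the T cell list at 120 CPM, for the NK cell list at 200.3 CPM and for the neutrophil list at 342 CPM. In the T22 pools they were the lowest pool for ribosome biogenesis and Myc, at 2763 CPM, and the highest pools for the inflammatory list, at 10263 CPM, and for the NK cell list, at 177 CPM. In the T127 pools they were the lowest pool for the Mrc1 state, at 2350.2 CPM, and the highest pool for the epithelial list, at 946 CPM.

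Of 72 comparisons of a list between the short-term models, 1 went opposite ways in every pool. The median log2 ratio of all 11 monocyte genes to Macro-others was 1.18 in T22 and -0.35 in T127. That difference was not tested, and the T127 value turned positive in UMIs per cell.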

How the results depend on the processing

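No paired test was made, although clusters were compared within pools where counts of pools are given. Pools were not paired between experiments, since their numbers name different mixtures of tumors. Shares of all cells were not recomputed under the alternatives. The shares of macrophages moved by less than the spread between pools under every alternative but one, copies of barcodes included. That one, added after the data were seen, left out the Macro-MKI67 cells that held at least 5 Epcam UMIs and kept such cells of the other clusters. Under it 8.65% of T22 and 8.79% of T127 macrophages were Macro-MKI67, and 67.9 and 32.1% of the T127 cells left were nearest to Macro-M2 and Macro-others. No count of genes moved by over 1.5 times. Under the other alternatives, the counts of genes, the nearest profiles and the shares by cycle UMIs moved as follows. For counts, the pairs below give genes higher and lower than Macro-M1, Macro-M2 and Macro-others in that order. Without a filter on low values they were 1237 and 264, 683 and 177, and 784 and 214 in the long-term pools, 679 and 225, 806 and 310, and 960 and 234 in T22, and, for Macro-M2 and Macro-others, 835 and 491, and 680 and 792 in T127, with 1165 higher and 953 lower in T22 than in T127. With a mean of at least 50 CPM they were 195 and 79, 113 and 35, and 140 and 43, then 122 and 29, 144 and 40, and 151 and 58, then 183 and 124, and 77 and 94, with 182 and 223 between the models. In UMIs per cell they were 1377 and 39, 931 and 24, and 1579 and 16 in the long-term pools, 47 and 61 lower than Macro-M1 and Macro-M2 and 1306 and 24 for Macro-others in T22, 3186 and 56, and 3315 and 79 in T127, and 215 and 1378 between the models. With a pseudocount of 10 CPM they were 387 and 79 for Macro-M1, with 36 and 43 lower than Macro-M2 and Macro-others in the long-term pools, 33 and 50 lower than Macro-M1 and Macro-M2 and 337 and 53 for Macro-others in T22, 141 lower than Macro-M2 and 171 and 151 for Macro-others in T127, and 336 lower in T22 than in T127. Scaling to the median ratio gave 279 lower than Macro-M1 and 160 lower than Macro-others in the long-term pools and 198 lower than Macro-others in T22, and the median over pools gave 126 lower than long-term Macro-M2.

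With all genes, where the cycle lists and the genes raised in Macro-MKI67 were restored together, the nearest profile was Macro-M1, Macro-M2 and Macro-others in 0.952, 42.6 and 56.4% of long-term and 37.0, 12.4 and 50.6% of T22 cells, and Macro-M2 and Macro-others in 19.7 and 80.3% of T127 cells. Leaving out 1 pool at a time, the T22 share nearest to Macro-M2 ran from 23.1 to 26.6%. Shares of cells with both S phase and G2/M UMIs, in the order long-term, T22 and T127, were 99.3, 99.4 and 100% at full depth, 74.5, 75.5 and 79.8% when thinned to 1500 UMIs, and 70.9, 76.2 and 81.2%, 38.2, 41.2 and 42.1%, and 3.34, 9.76 and 5.58% with at least 4, 10 and 20 UMIs. Shares with G2/M alone were 0.714, 0.606 and 0%, 23.1, 22.1 and 17.2%, 26.5, 21.6 and 14.7%, 51.8, 49.1 and 36.5%, and 64.4, 64.0 and 56.3%. Shares with S phase alone were 0% at full depth in each experiment, 1.82% of T22 and 3.03% of T127 cells at 1500 UMIs, 1.67% of long-term cells with at least 4 UMIs, 3.82, 5.79 and 9.14% with 10, and 5.73, 5.49 and 7.61% with 20.

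Among log2 ratios of the named genes, 6525 moved by less than the spread between pools, 477 by more and 19 changed sign or came to 0. A change of sign was counted only for ratios of at least 2-fold, and changes of sign in smaller ratios are among the other counts. Gzmc against long-term Macro-M1, Macro-M2 and Macro-others ran from -0.24 to 4.89, from -1.89 to 4.64 and from -1.15 to 4.89 when 1 pool was left out, was -0.30, -0.83 and -0.65 as the median over pools, and was -0.10, -1.39 and -0.69 without its highest cell. Gzmd against Macro-M2 ran from -0.96 to 4.97, was -0.17 as the median over pools and -0.94 without its highest cell, and against Macro-others it was -0.026 and -0.10 under the last pair of settings. Ly6c2 against T22 Macro-others ran from -1.63 to 1.95 and was -0.91 and -1.0 under that pair, and Il12b against T127 Macro-M2 ran from -1.55 to 0 and was 0 as the median over pools. In these cases 1 pool or 1 cell held most of the UMIs. For the other changes the cause was not tested. Rare transcripts are limited by depth, since 43 to 60 long-term Macro-MKI67 cells stood in each pool.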
